A study of Rattus norvegicus with 62 samples.

Results

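The genes examined here are 45 genes of the cell division cycle, chosen as a list and read in the hearts of male Wistar rats that had been given the antidiabetic drug rosiglitazone. A gene was read from every probe set, a group of short probes for 1 transcript, whose platform annotation gave that gene and no other. This found 60 probe sets for 43 of the 45 genes, of 31042 probe sets on the array. Rrm2 was present only on probe sets annotated with several genes, and Tpx2 was not listed, so neither was read.

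Rosiglitazone, an agonist of the nuclear receptor PPAR gamma, was given by mouth once a day for 14 days at 10 or 80 mg/kg/day, and control rats received 0 mg/kg/day (vehicle). Cardiac muscle was taken 6, 24, 168 or 336 h after the final dose, so that the later times follow withdrawal of the drug. The vehicle groups held 4, 6, 5 and 5 samples at these times, the 10 mg/kg groups 5, 5, 5 and 6, and the 80 mg/kg groups 5, 5, 6 and 5, which makes 62 samples with 1 array each. The rats' age is not given in the labels, and the labels do not say that each sample came from its own animal, so that a p-value here is set against the spread from sample to sample, which may be technical. Both doses are set against the same vehicle arrays, and results of the 2 doses at 1 time are therefore not independent of each other.

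A dividing cell copies its DNA in S phase and separates the copies in mitosis. D-type cyclins with Cdk4, and cyclin E with Cdk2, carry a cell out of G1; the Mcm2-7 helicase opens the DNA, Pcna clamps the polymerase to it, and ribonucleotide reductase, thymidylate synthase and thymidine kinase supply its building blocks. Mitosis then depends on Cdk1 with the B cyclins, on topoisomerase and kinesins, and on the ubiquitin machinery that ends it, and the genes for these proteins are switched on together late in the cycle. Adult heart muscle cells divide very rarely, and most dividing cells of an adult heart are endothelial cells, fibroblasts and leukocytes. In whole tissue, fewer cells of a kind and less RNA per cell cannot be told apart.

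The members were split by role into 11 replication genes, 7 genes of G1 entry and 27 genes of mitosis. Genes of the late cycle typically carry a CCAAT box and a cell cycle homology region (CHR) near their start, and genes of S phase an E2F site. RefSeq promoters of the GRCr8 build, from 250 bases before to 50 bases after the annotated start, were matched for 33 of the 45 members. Each was searched on both strands for the CCAAT box (CCAAT), the CHR (TTTGAA or TTCGAA) and the E2F site (TTCCCGC or TTGGCGC). A match is a description of letters, not evidence of a bound site. Among 20 mitosis promoters, 16 (80.0%) held a CCAAT box, 14 (70.0%) a CHR, 13 (65.0%) both, and 3 (15.0%) an E2F site. Among 9 replication promoters the counts were 6 (66.67%), 3 (33.33%), 2 (22.22%) and 6 (66.67%). Of all 33469 promoters in the table, 37.49% held a CCAAT box, 19.74% a CHR, 7.954% both and 6.26% an E2F site. The CCAAT box and the E2F site shared letters in 145 of all promoters, the CCAAT box and the CHR in 26, and the CHR and the E2F site in 0. Promoters of 6 members whose signals are described below show the contrast between both classes, with the matches on either strand in capitals.
Top2a, chr10:84473044-84473343, minus strand: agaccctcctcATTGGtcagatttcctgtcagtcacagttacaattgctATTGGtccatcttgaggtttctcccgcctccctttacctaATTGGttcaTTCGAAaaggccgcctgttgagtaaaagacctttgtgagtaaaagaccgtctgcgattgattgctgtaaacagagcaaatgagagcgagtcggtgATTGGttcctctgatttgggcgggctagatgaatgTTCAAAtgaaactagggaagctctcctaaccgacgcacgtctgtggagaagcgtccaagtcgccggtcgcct
Prc1, chr1:143659231-143659530, plus strand: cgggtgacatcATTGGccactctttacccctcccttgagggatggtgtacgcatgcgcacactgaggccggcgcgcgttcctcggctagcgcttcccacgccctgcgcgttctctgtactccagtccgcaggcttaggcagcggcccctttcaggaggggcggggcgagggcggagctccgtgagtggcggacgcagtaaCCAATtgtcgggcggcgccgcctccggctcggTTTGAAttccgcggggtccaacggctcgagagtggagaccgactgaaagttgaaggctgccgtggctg
Cdk1, chr20:19265043-19265342, plus strand: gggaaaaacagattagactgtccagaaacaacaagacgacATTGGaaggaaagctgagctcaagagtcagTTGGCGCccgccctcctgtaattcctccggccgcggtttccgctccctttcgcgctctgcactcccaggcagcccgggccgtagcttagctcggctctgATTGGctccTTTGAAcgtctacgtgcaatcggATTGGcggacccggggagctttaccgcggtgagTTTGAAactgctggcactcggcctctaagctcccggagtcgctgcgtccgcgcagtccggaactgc
Kif20a, chr18:26504172-26504471, plus strand: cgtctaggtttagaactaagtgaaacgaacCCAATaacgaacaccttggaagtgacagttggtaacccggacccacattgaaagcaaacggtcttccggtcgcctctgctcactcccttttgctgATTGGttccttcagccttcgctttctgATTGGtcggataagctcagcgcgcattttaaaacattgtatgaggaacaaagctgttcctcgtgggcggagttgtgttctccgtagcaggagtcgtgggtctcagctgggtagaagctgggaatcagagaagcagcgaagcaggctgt
Mcm6, chr13:42404303-42404602, minus strand: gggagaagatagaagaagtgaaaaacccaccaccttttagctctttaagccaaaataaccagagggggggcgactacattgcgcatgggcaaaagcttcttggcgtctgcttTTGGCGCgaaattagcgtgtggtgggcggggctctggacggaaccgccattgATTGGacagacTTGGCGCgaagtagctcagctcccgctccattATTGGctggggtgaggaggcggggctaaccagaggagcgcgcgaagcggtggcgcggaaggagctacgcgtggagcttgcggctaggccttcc
Mcm5, chr19:13488563-13488862, plus strand: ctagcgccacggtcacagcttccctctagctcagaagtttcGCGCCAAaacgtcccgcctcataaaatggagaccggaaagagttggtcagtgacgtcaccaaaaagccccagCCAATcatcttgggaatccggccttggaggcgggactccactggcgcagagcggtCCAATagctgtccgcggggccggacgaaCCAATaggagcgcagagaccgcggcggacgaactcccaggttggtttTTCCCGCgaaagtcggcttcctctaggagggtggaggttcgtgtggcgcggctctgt

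The Top2a promoter held 4 CCAAT boxes and 2 CHRs with no E2F match, and the Prc1 promoter 2 CCAAT boxes and 1 CHR. The Cdk1 promoter held 3 CCAAT boxes, 2 CHRs and 1 E2F match. Kif20a held 3 CCAAT boxes and no CHR match. Both replication promoters lacked a CHR match: Mcm6 held 2 CCAAT boxes and 2 E2F matches, and Mcm5 3 CCAAT boxes and 2 E2F matches.

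Signals were low for the mitosis genes and higher for the others. The deposited signals were put on the log2 scale and quantile normalized, so that every value below is relative to the other probe sets of its array, and probe sets were tested where their mean over the 62 arrays reached the 40th percentile of the array, a log2 signal of 5.03. The median of the mean log2 signals was 6.60 over 12 replication probe sets, 8.03 over 10 G1 probe sets and 5.06 over 38 mitosis probe sets. For scale, 36 probe sets of genes typical of other organs, such as insulin or prolactin, had a median of 3.69, an upper quartile of 5.07 and a highest mean of 6.95, and 10 of them passed the filter. All 38 mitosis probe sets, the highest at 6.63, lay below that highest mean. Because probes differ in brightness, these levels say where a probe set stands above background, not how the transcripts compare in number.

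The filter kept 10 replication probe sets (8 genes), 9 G1 probe sets (6 genes) and 19 mitosis probe sets (16 genes), 38 probe sets of 30 genes in all. The replication genes kept were Pcna at a mean log2 signal of 9.58, Mcm7 at 7.64, Rrm1, the large subunit of ribonucleotide reductase, at 7.43, Mcm5 at 7.24, Tk1 at 6.82, 6.37 and 5.54 on 3 probe sets, Mcm2 at 6.81, Mcm4 at 6.39 and Mcm6 at 5.80. Tyms (5.02) and Mcm3 (4.34) lay below the filter. The mitosis genes kept ran from Nusap1, a spindle protein, at 6.63 down to cyclin B1 (Ccnb1) at 5.09 on its dimmer probe set. Top2a stood at 6.35 and 6.11 on 2 probe sets, Prc1 at 6.05, Cdk1 at 5.98 and Mki67, the gene of the Ki-67 proliferation antigen, at 5.82.

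Of the mitosis genes 10 had no probe set above the filter: the kinases Aurka, Aurkb, Plk1, Bub1, Bub1b, Ttk, Melk and Pbk, cyclin A2 (Ccna2) and the transcription factor Foxm1, whose dimmer probe set gave the lowest mean of all members, 1.88. Aurka, at 5.02, lay just under the filter. E2f1, a transcription factor of G1 entry, also lay below it at 3.75. None of these members was tested, and the counts below cover the members that passed, not all members.

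**Figure D1:**
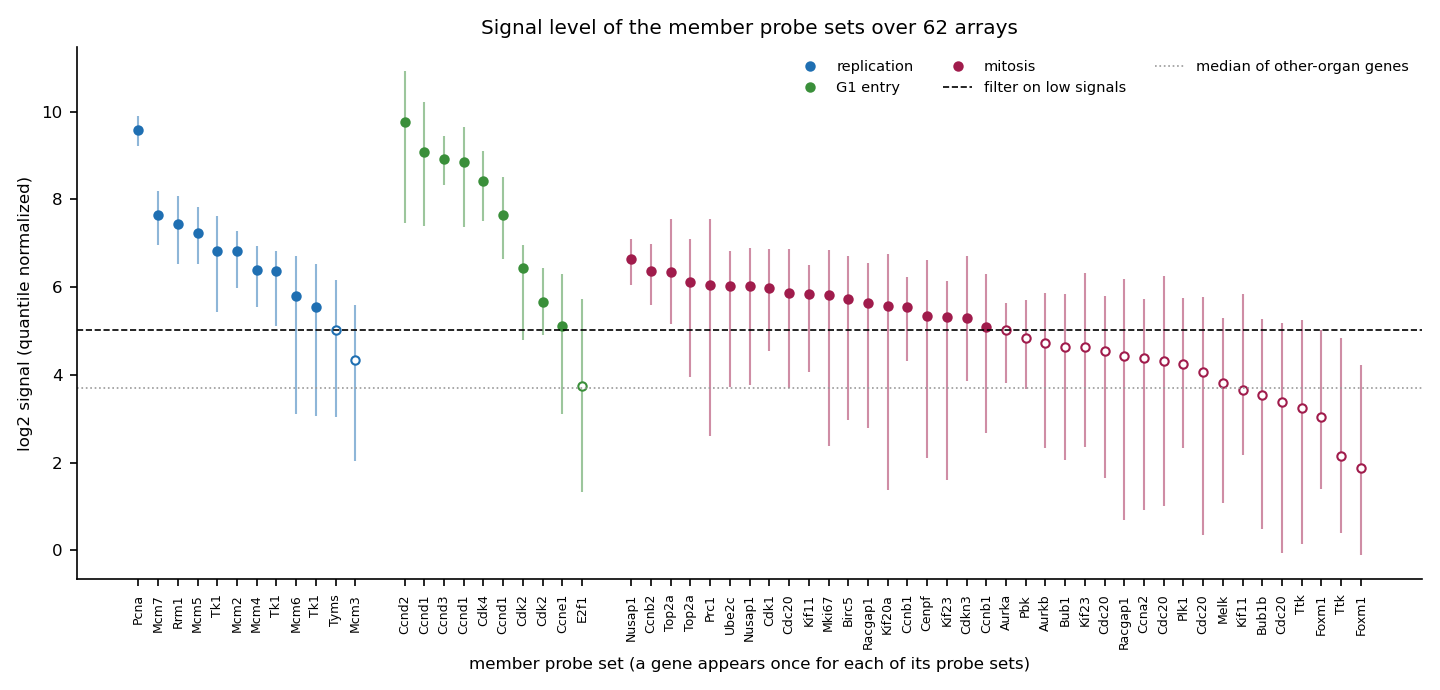
Mean log2 signal of each of the 60 member probe sets over 62 arrays, with a line from the lowest to the highest array; filled points passed the filter on low signals (dashed line) and open points did not. Of the mitosis probe sets 19 of 38 lie below the filter, and all lie below 6.95, the highest mean among genes typical of other organs, whereas Pcna lies at 9.58 and varies only from 9.21 to 9.91.

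The tissue matched its label: the cardiomyocyte genes Tnnt2 and Myh6 reached group means between 14.02 and 14.10 and, on its brighter probe set, between 13.86 and 13.96. Arrays within a group differed in other respects. Myl7, the atrial myosin light chain, was above a log2 signal of 9 in 10 arrays, called atrial arrays below: 1 of vehicle, 4 of 10 mg/kg and 2 of 80 mg/kg at 6 h, and 3 of 80 mg/kg at 24 h. In 3 vehicle arrays the actin control probe sets differed by more than 1.5 between the 3′ and 5′ ends of the transcript, 1 at 6 h and 2 at 24 h. The arrays were also split into 3 clusters, a number set beforehand, by k-means on their 2 leading principal components. All 336 h arrays fell into the same cluster with neither high Myl7 nor a high actin difference.

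Of the 8 comparisons with vehicle, the largest median difference of a member list was in 80 mg/kg hearts at 336 h, after withdrawal. There every kept mitosis gene had a higher mean than in vehicle hearts, 16 of 16, with a median log2 difference of 0.60 and a range of 0.17 to 1.49. Over all 18625 tested probe sets the median difference was −0.01 and 48.9% were higher. The replication genes differed little: 6 of 8 were higher, with a median of 0.06. The 6 G1 genes were all higher, with a median of 0.13. No member passed the test: 0 of 38 member probe sets were called by limma at an adjusted p under 0.05, where 0.29% of all tested probe sets were. At an unadjusted p under 0.05, 7 of the 19 mitosis probe sets were higher and 0 lower, against 3.73% of all probe sets higher. With array quality weights, Prc1 and Top2a were called, with adjusted p of 0.0450 and 0.0476; over the alternatives Prc1 ranged from 0.0450 to 1 and Top2a from 0.0476 to 1.

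Prc1 encodes the protein that bundles the microtubules of the central spindle. Its log2 signals at 336 h were 5.95, 5.76, 4.63, 5.77 and 5.27 in vehicle hearts and 7.15, 6.66, 6.18, 7.55 and 7.27 in 80 mg/kg hearts. Every 80 mg/kg array lay above every vehicle array. Prc1 was the only member without overlap between these groups, a separation that 1.28% of all tested probe sets showed in the same direction. The difference was 1.49 (SE 0.520, 95% interval 0.45 to 2.53), a fold of 2.81, with a limma adjusted p of 0.400.

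Top2a encodes the topoisomerase that untangles sister chromosomes. Its brighter probe set read 6.48, 6.26, 6.00, 6.07 and 6.06 in vehicle hearts and 7.06, 6.84, 6.45, 7.26 and 7.54 in 80 mg/kg hearts at 336 h. The lowest 80 mg/kg array lay just under the highest vehicle array and the others lay above all of them. The difference was 0.86 (SE 0.288, limma adjusted p 0.323, n = 5 and 5), a fold of 1.82. The other Top2a probe set differed by 0.47 (SE 0.345) in the same direction.

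Cdk1, the kinase that drives entry into mitosis, read 5.66, 5.75, 6.25, 5.32 and 5.84 in vehicle hearts and 6.57, 6.18, 5.88, 6.73 and 6.86 in 80 mg/kg hearts at 336 h. The groups overlapped through 1 high vehicle array and 2 low 80 mg/kg arrays, for a difference of 0.68 (SE 0.251, limma adjusted p 0.456). Mki67 read 6.07, 5.61, 5.81, 4.88 and 4.84 in vehicle and 6.55, 6.00, 5.50, 6.79 and 6.86 in 80 mg/kg hearts. It overlapped as well, with a difference of 0.89 (SE 0.380, limma adjusted p 0.592).

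Cdkn3, a phosphatase that acts on cyclin-dependent kinases, read 5.61, 5.01, 5.03, 4.77 and 4.94 in vehicle hearts at 336 h and 6.33, 5.92, 4.53, 5.95 and 6.70 in 80 mg/kg hearts. Here 4 of the 5 treated arrays lay above all vehicle arrays and the fifth below all of them. The same treated array, replicate 3, was the lowest of its group for Top2a, Prc1, Cdk1 and Mki67. The Cdkn3 difference was 0.82 (SE 0.328, limma adjusted p 0.537). Ube2c, the ubiquitin-conjugating enzyme of the anaphase-promoting complex, and Racgap1, a partner of Kif23 in cell separation, were the other mitosis members with an unadjusted p under 0.05, at 0.76 and 0.69, and were named after their values were seen.

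Differences smaller than or close to their SE were also present. For cyclin B1, the partner of Cdk1, the 2 probe sets were higher by 0.22 (SE 0.236) and 0.34 (SE 0.364) in 80 mg/kg hearts at 336 h. They did not vary together over the 62 arrays (Pearson r 0.03 after removal of group means). Of the 19 mitosis probe sets below the filter, 12 were higher at 336 h, with a median difference of 0.51. Of the 19 kept mitosis probe sets, 13 had their highest mean of all 12 groups in the 80 mg/kg hearts at 336 h, as did 2 of the 10 kept replication probe sets.

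Replication genes at 336 h separated into a few with higher means and a majority near 0. Mcm6, a subunit of the helicase, read 5.82, 5.87, 6.10, 4.16 and 5.42 in vehicle hearts and 6.51, 6.02, 6.29, 6.55 and 5.90 in 80 mg/kg hearts. The groups overlapped, and 1 vehicle array was far below the others. The difference was 0.78 (SE 0.316, limma adjusted p 0.544); without that vehicle array, replicate 5, it was 0.45. Mcm4, another subunit, read 6.09, 5.54, 6.23, 5.89 and 6.13 in vehicle and 6.61, 6.45, 6.30, 6.09 and 6.26 in 80 mg/kg hearts. Its difference was 0.37 (SE 0.143, limma adjusted p 0.508), again with overlap. Pcna (0.01, SE 0.103), Mcm2 (0.09, SE 0.148), Mcm7 (0.03, SE 0.150) and Mcm5 (−0.04, SE 0.159) had differences near 0.

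**Figure D2:**
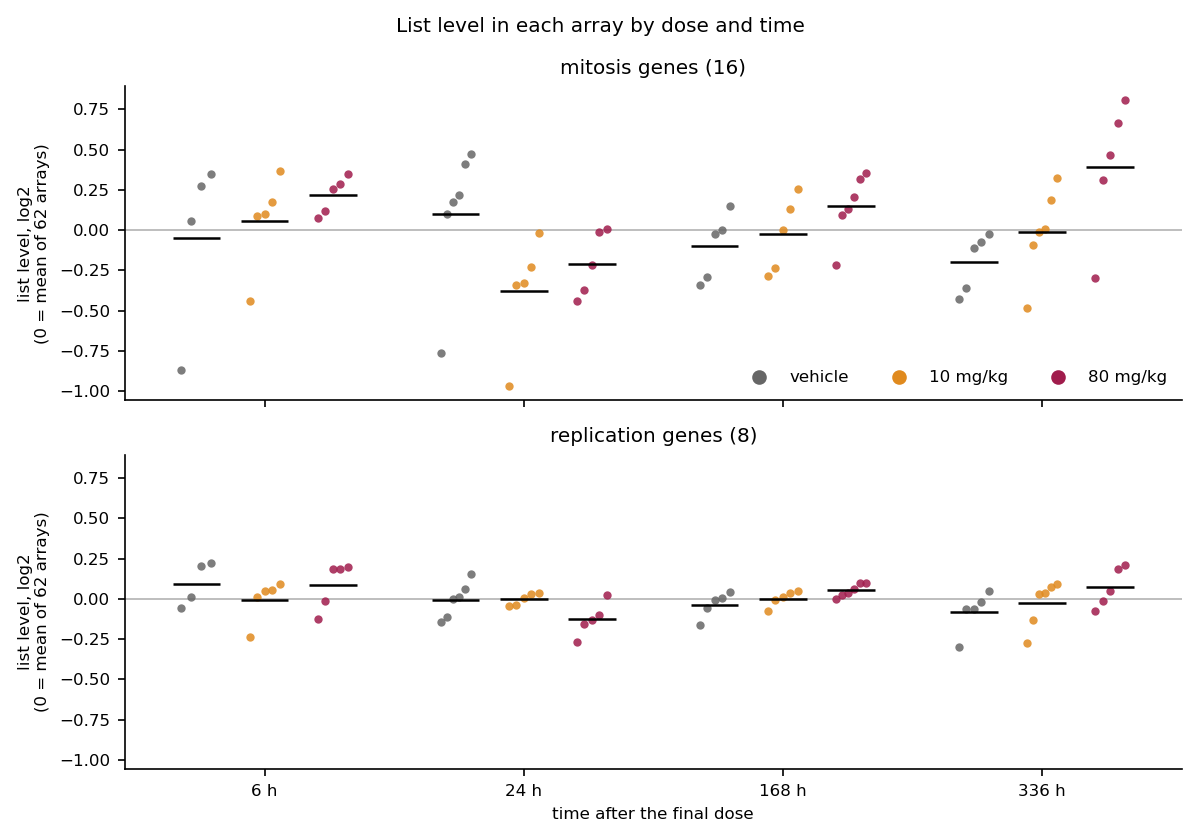
Level of the mitosis genes (upper) and the replication genes (lower) in each of 62 arrays by dose and time. A point is the mean over the list's kept genes of the log2 signal minus that gene's mean over all arrays, and bars are group means. In 80 mg/kg hearts at 336 h, 4 of 5 arrays lie above all 336 h vehicle arrays for mitosis, though not above all vehicle arrays of earlier times. The replication panel spans a narrower range in each 336 h group, and runs from −0.30 to 0.22 over all groups.

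A list level per array was taken as the mean over genes of the log2 signal minus each gene's mean over all arrays. The mitosis list level at 336 h ran from −0.43 to −0.02 in vehicle hearts (mean −0.20 ± 0.18 SD, n = 5). In 80 mg/kg hearts it ran from −0.30 to 0.81 (mean 0.39 ± 0.43 SD, n = 5), with replicate 3 the low array and the other arrays above every vehicle array. In 10 mg/kg hearts it ran from −0.49 to 0.32 (mean −0.01 ± 0.28 SD, n = 6) and overlapped both. All 16 kept mitosis genes stayed higher in 80 mg/kg than in vehicle hearts under every alternative that kept 16 genes, and with each array of the 2 groups left out. Their median minus that of all probe sets, 0.60, ranged from 0.48 to 0.77 with an array left out.

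At 10 mg/kg the 336 h differences from vehicle were smaller. Of the 16 mitosis genes 14 were higher, with a median of 0.19, and of 8 replication genes 5, with a median of 0.02. No member probe set was called (0% of all tested). Mcm4 was higher by 0.30 (SE 0.137) and Rrm1 had a difference of −0.26 (SE 0.151). The dimmer Ccnb1 probe set had a difference of −0.66 (SE 0.348) and Ube2c one of 0.45 (SE 0.288); all 4 had a limma adjusted p of 1.

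Set directly against 10 mg/kg, the 80 mg/kg hearts at 336 h had higher means for 15 of 16 mitosis genes, with a median of 0.39, and for 5 of 8 replication genes, with a median of 0.04. No member was called, where 0.102% of all tested probe sets were. At an unadjusted p under 0.05, 5 mitosis probe sets were higher (1.99% of all tested were), those of Ccnb1, Top2a, Cenpf, Cdkn3 and Cdk1. Top2a in 10 mg/kg hearts ran from 6.08 over a median of 6.37 to 6.62, under all 80 mg/kg arrays but replicate 3, for a difference of 0.66 (SE 0.276, limma adjusted p 0.999).

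Markers of other cells were measured beside this. For 80 mg/kg against vehicle at 336 h, 9 of 11 macrophage genes were higher with a median of 0.16, and the list level ran from −0.32 to 0.14 in vehicle and from −0.06 to 0.21 in treated hearts. Endothelial genes were higher in 5 of 8 with a median of 0.11 (list levels 0.05 to 0.24, and 0.05 to 0.29), and fibroblast genes in 5 of 8 with a median of 0.19 (−0.37 to 0.02, and −0.28 to 0.27). Smooth muscle genes were higher in 4 of 6 with a median of 0.09. Ventricular genes were higher in 0 of 7, by a small shift (list levels −0.03 to 0.03 in vehicle, and −0.06 to −0.02 in treated hearts). Lymphocyte genes were higher in 2 of 5, with a median of −0.02, and atrial genes in 4 of 6 with a median of 0.35 (−1.08 to −0.39, and −0.51 to 0.19). Kdr, the endothelial receptor for VEGF, rose by 0.48 (SE 0.0939, limma adjusted p 0.00401) and Lck, a T-cell kinase, by 0.51 (SE 0.113, limma adjusted p 0.0193). The part of these cell types in the mitosis result was not tested.

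At 24 h the mitosis genes lay on the other side of vehicle at both doses. In 80 mg/kg hearts 4 of 16 mitosis genes were higher, with a median difference of −0.28, and in 10 mg/kg hearts 2 of 16, with a median of −0.47, against medians of −0.02 and −0.01 over all tested probe sets. Less the median of all probe sets, the mitosis medians were −0.26 and −0.46. The first was −0.12 with unscaled or median-scaled signals, −0.16 with the replicate block, −0.17 with the cluster block and −0.41 without vehicle replicate 3, and the second −0.31 without 10 mg/kg replicate 6. Replication genes had medians of 0.00 and −0.04, with 4 and 3 of 8 higher. At 80 mg/kg 1 member was called, Mcm6, which fell, where 0.14% of all tested probe sets were called, and none at 10 mg/kg (0%). At an unadjusted p under 0.05, 4 of 19 mitosis probe sets were lower in 80 mg/kg hearts, against 6.39% of all tested, and 5 of 19 in 10 mg/kg hearts, against 3.3%. The mitosis list level was −0.76 to 0.47 in the 6 vehicle arrays, −0.97 to −0.02 at 10 mg/kg and −0.44 to 0.01 at 80 mg/kg, so the groups overlapped.

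Mcm6 read 3.77, 5.50, 3.11, 5.17 and 5.81 in 80 mg/kg hearts at 24 h. The 6 vehicle arrays ran from 5.72 over a median of 6.17 to 6.54. Both lowest treated arrays stood far below the rest, and only the highest treated array reached the vehicle range. Mcm6 fell by 1.46 (SE 0.303, limma adjusted p 0.0187), a fold of 0.362. These low arrays, replicates 2 and 4, were among the 3 arrays of the group with atrial tissue, in which Myl7 reached 12.9, against 7.56 and 7.59 in the other treated arrays and 6.67 to 7.97 in vehicle. Leaving out the 3 atrial arrays took out both lowest Mcm6 values and left 2 treated arrays, at 5.50 and 5.81. The Mcm6 difference was then −0.48 (adjusted p 0.652, range over alternatives 0.00263 to 0.652). Without replicate 2 it was −1.24 (adjusted p 0.128), without replicate 4 −1.07 (0.140), and without vehicle replicate 4 −1.38 (0.0639). It was also not called with unscaled signals (−1.60), a block term for array cluster (−1.41), the arrays of high actin difference left out (−1.38) or the 24 h arrays alone (−1.46), with adjusted p of 0.144, 0.0925, 0.206 and 0.445. Of the whole atrial list 5 of 6 genes were higher, with a median of 1.74 and list levels of −0.85 to 2.65 against −0.71 to 0.25 in vehicle. The remaining atrial array of the group, replicate 5, read 5.17, which was also the lowest Mcm6 signal in array cluster 3. That cluster held the 6 h atrial arrays of 10 mg/kg replicates 3, 4 and 5 and 80 mg/kg replicate 2. Mcm6 in the 6 h atrial arrays of cluster 1 is not given here. The part of atrial tissue in the Mcm6 value was not tested.

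Kif20a, a kinesin of cell separation, read 5.96, 1.38, 4.68, 4.50 and 5.17 in 80 mg/kg hearts at 24 h and from 4.75 over a median of 5.91 to 6.55 in vehicle. Of the treated arrays 1 was far below all others, and 2 lay within the vehicle range. The difference was −1.49 (SE 0.458, limma adjusted p 0.209), −0.75 without the lowest array (replicate 3), and −2.55 (adjusted p 0.0290; range over alternatives 0.0290 to 0.639) without the atrial arrays, which left 2 treated arrays, this one included. Cdkn3 read 5.52, 4.08, 5.13, 3.86 and 4.69 at 80 mg/kg, 5.48, 4.18, 3.93, 5.04 and 4.33 at 10 mg/kg, and from 4.88 over a median of 5.61 to 6.50 in vehicle. Both dosed groups overlapped the vehicle arrays, with differences of −0.97 (SE 0.314, limma adjusted p 0.240) and −1.04 (SE 0.314, limma adjusted p 0.561).

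Mcm5, in contrast to Mcm6, had higher means at 24 h. It read 7.45, 7.17, 7.07, 7.42 and 7.82 at 80 mg/kg and from 6.54 over a median of 6.82 to 7.35 in vehicle, with overlap, for a difference of 0.49 (SE 0.153, limma adjusted p 0.212), which was 0.23 with unscaled signals. The array clusters accounted for 23.3% of its variance, with a median of 7.13 in cluster 3 against 7.35 and 7.27 in the others, and 5 of 6 vehicle but 1 of 5 treated arrays at 24 h lay in cluster 3. The part of the clusters in this value was not tested beyond the block, with which it was 0.39. At 10 mg/kg the difference was 0.31 (SE 0.153, limma adjusted p 0.848). Vehicle hearts at 24 h had the lowest Mcm5 mean of all 12 groups. At 10 mg/kg Kif23, a kinesin of the central spindle, had a difference of −1.07 (SE 0.389, limma adjusted p 0.783), which was −0.37 without the lowest treated array, and the Tk1 probe set described for 6 h one of 0.19.

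Of the members named whatever their p, at 24 h in 80 mg/kg hearts, Top2a had a difference of −0.68 (SE 0.276), Mki67 of −0.75 (SE 0.364) and Cdk1 of −0.03 (SE 0.240), while Ccnb1 was higher by 0.08 and 0.20 on its 2 probe sets. At this time 0 of 8 endothelial genes were higher in 80 mg/kg hearts, and 1 of 8 in those given 10 mg/kg, with medians of −0.11 and −0.16. Macrophage genes were higher in 8 of 11 at each dose, with medians of 0.10 and 0.20. Fibroblast genes were higher in 5 and 8 of 8, with medians of 0.11 and 0.09, and lymphocyte genes in 3 of 5 at each dose. The part of these cell types in the mitosis values was not tested.

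**Figure D3:**
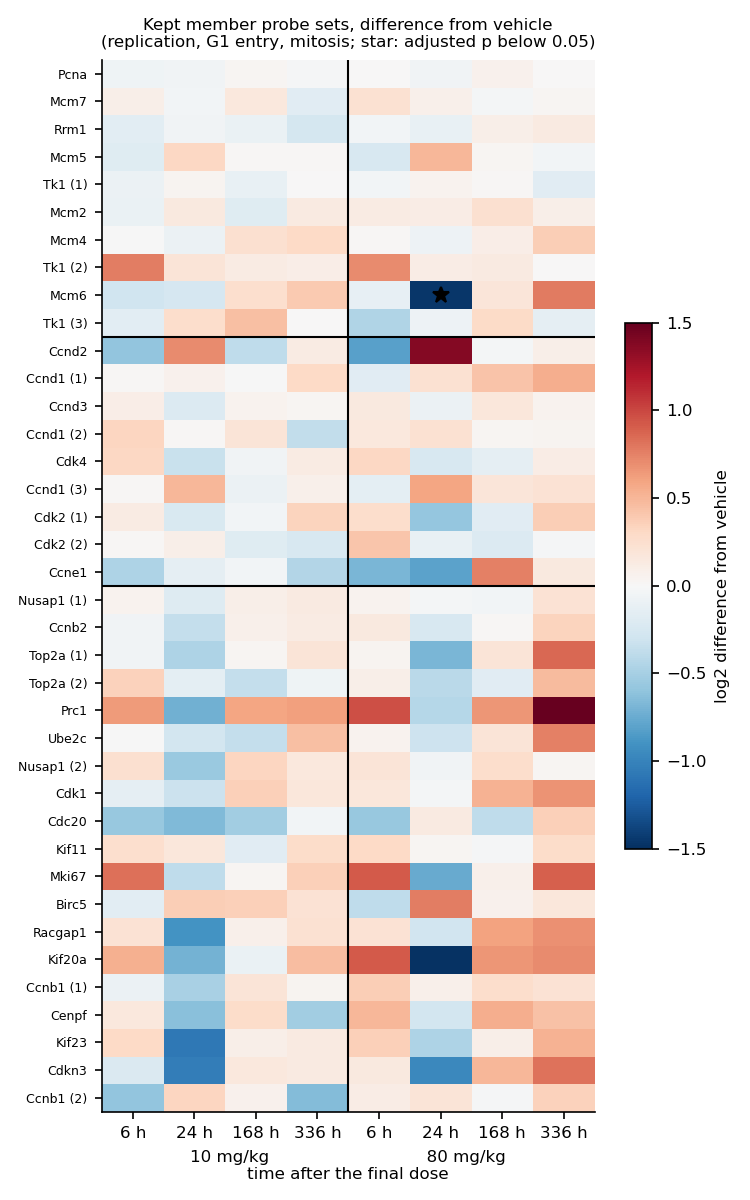
Log2 difference from vehicle of the 38 kept member probe sets at each dose and time, in the order replication, G1 entry and mitosis; numbers in brackets separate probe sets of a gene, and the star marks an adjusted p under 0.05. The mitosis block is mostly red in the 80 mg/kg column at 336 h and mostly blue at 24 h at both doses, and the star is Mcm6 at 80 mg/kg and 24 h (−1.46).

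At 6 h, 14 of 16 mitosis genes had higher means in 80 mg/kg than in vehicle hearts, with a median of 0.19, and 8 of 16 at 10 mg/kg, with a median of 0.02. No member was called, where 0.0537% and 0% of all tested probe sets were. Replication genes had medians of −0.02 and −0.09. The 80 mg/kg median rested on 1 of the 4 vehicle arrays: without replicate 6 it was 0.03 with 10 of 16 higher. Without the atrial arrays it was 0.00 with 8 of 16 higher. Replicate 6 was itself the atrial vehicle array (Myl7 12.3), so both exclusions left it out. The part of atrial tissue in these values was not tested. In that vehicle array Mki67 read 2.38 against 5.99, 6.06 and 5.97 in the others, and Kif20a 3.18 against 5.88, 6.19 and 5.61. Mki67 was higher by 0.92 (SE 0.403, limma adjusted p 0.697) at 80 mg/kg and by 0.82 (SE 0.403, limma adjusted p 0.775) at 10 mg/kg, and by 0.01 and −0.09 without it. Kif20a was higher by 0.92 (SE 0.508) at 80 mg/kg, by 0.24 without that array, and Cdc20, the activator of the anaphase-promoting complex, had a difference of −0.57 (SE 0.364) at 10 mg/kg.

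Thymidine kinase, Tk1, had the smallest unadjusted p of the members at 6 h, on 1 of its 3 kept probe sets. That probe set read 5.33, 6.56, 6.12 and 5.12 in vehicle hearts, 6.57, 6.75, 6.68, 6.35 and 6.40 at 10 mg/kg, and 6.30, 6.68, 6.26, 6.66 and 6.57 at 80 mg/kg. The vehicle arrays were spread, and 1 of them lay within both treated ranges. The differences were 0.77 at 10 mg/kg (SE 0.175, limma adjusted p 0.148) and 0.71 at 80 mg/kg (SE 0.175, limma adjusted p 0.135). Without that vehicle array, replicate 3, they were 1.03 (adjusted p 0.00134) and 0.97 (adjusted p 0.00181). The other Tk1 probe sets did not follow it over the 62 arrays (r 0.25 and −0.34 after removal of group means). They also went the other way at 6 h, each at 1 dose. The brightest had its lowest mean of all 12 groups at 10 mg/kg and 6 h (6.56). The dimmest had its lowest at 80 mg/kg and 6 h (5.23), so that both lay below vehicle there. Mcm7 was higher by 0.23 at 80 mg/kg, and Mcm5 had a difference of −0.18 at 10 mg/kg.

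At 168 h the differences were small. In 80 mg/kg hearts 13 of 16 mitosis genes (median 0.20) and 7 of 8 replication genes (median 0.08) were higher, and no member was called (0.0537% of all tested). Cdk1 read 5.52, 6.07, 5.48, 5.84 and 5.52 in vehicle hearts, and from 5.90 over a median of 6.21 to 6.66 in the 6 treated arrays. The highest vehicle array lay within the treated range, and the difference was 0.52 (SE 0.240, limma adjusted p 0.883). Racgap1 was higher by 0.60 (SE 0.325), Mcm2 by 0.24 (SE 0.142) and Tk1 by 0.14 (SE 0.158). In 10 mg/kg hearts 12 of 16 mitosis genes (median 0.08) and 5 of 8 replication genes (median 0.03) were higher, with no call (0%). Mcm4 was higher by 0.24, Cdk1 by 0.36, and Mcm2 and Cdc20 had differences of −0.18 and −0.52.

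Between the doses themselves, no member was called at 6 h (0% of all tested), 24 h (0.0107%) or 168 h (0.0376%). Mitosis genes had medians of 0.10, 0.22 and 0.15 for 80 against 10 mg/kg at these times, with 14, 11 and 13 of 16 higher. The 6 h value turned to −0.12 without the atrial arrays and to −0.03 without 10 mg/kg replicate 5, and the 24 h value was 0.06 without 10 mg/kg replicate 6, 0.10 without the atrial arrays, 0.07 with no filter and 0.14 with a signal floor. Mcm6 at 24 h had a difference of −1.21 (SE 0.316, limma adjusted p 0.542): the 10 mg/kg arrays read 5.87, 6.59, 6.29, 5.70 and 4.97 and overlapped both the vehicle and the 80 mg/kg range. Mcm2 at 168 h had a difference of 0.42 (SE 0.142, limma adjusted p 0.784).

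**Figure D4:**
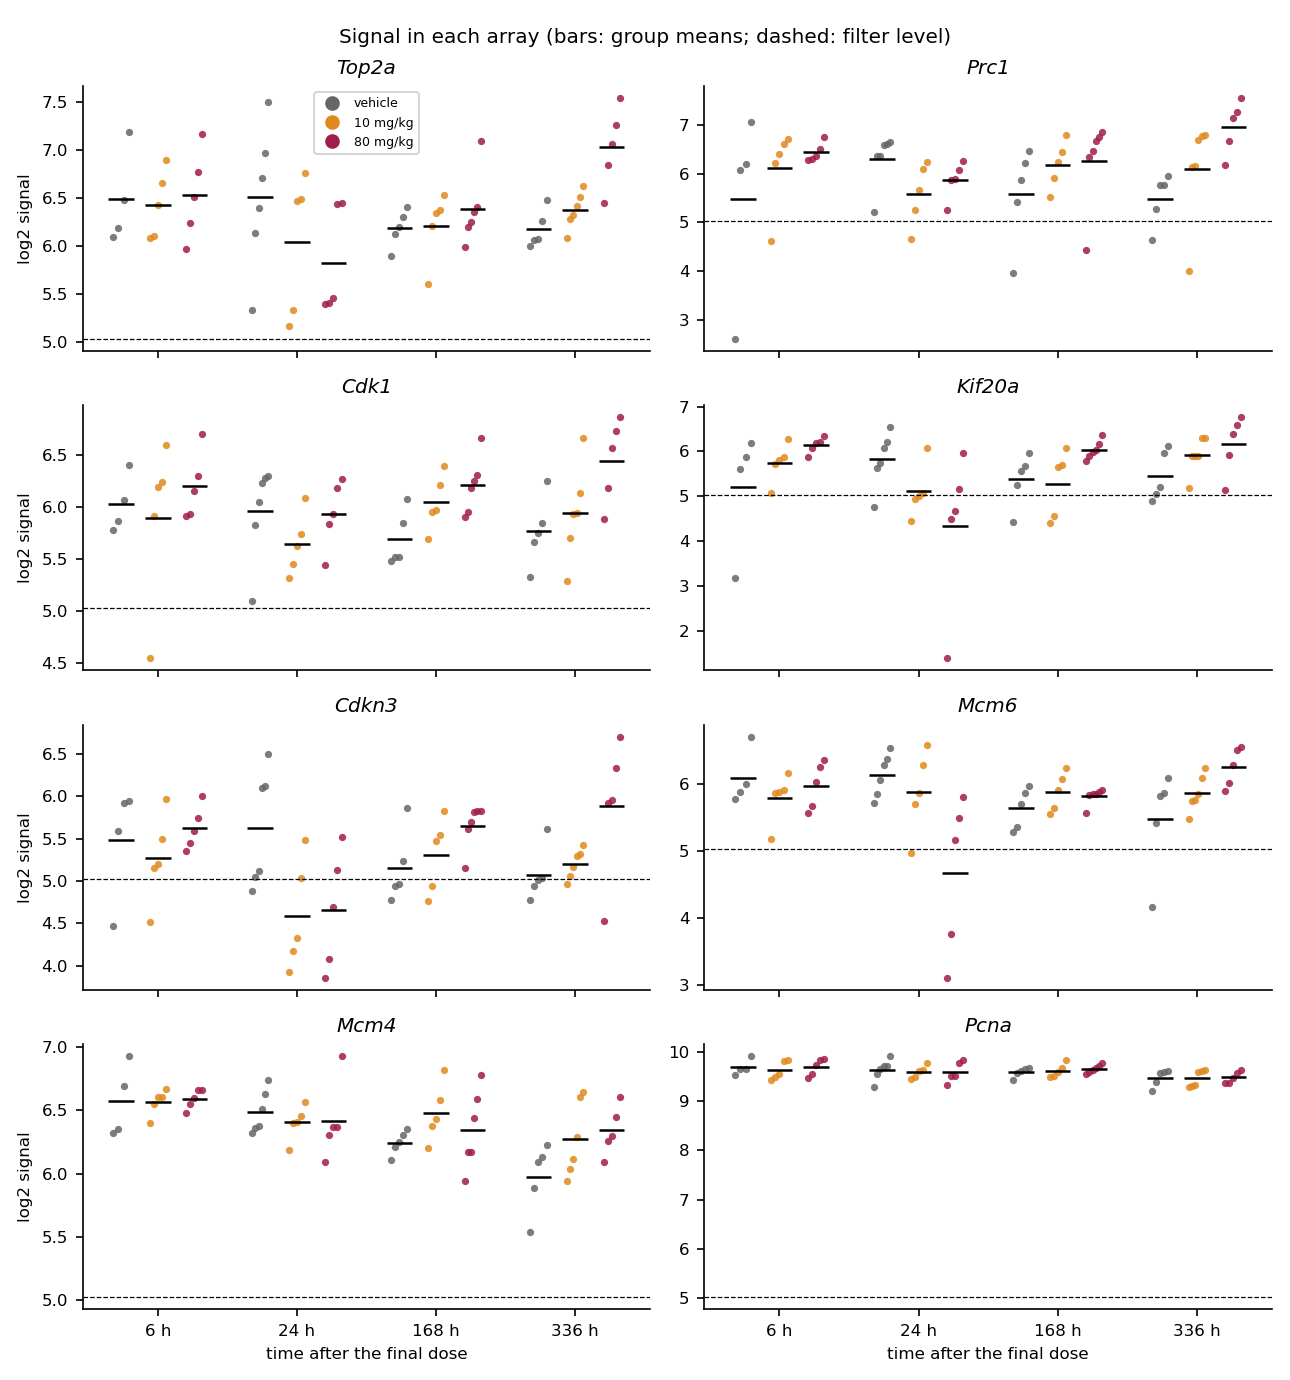
Log2 signal of 8 member probe sets in each array by dose and time, with group means as bars and the filter level as a dashed line; vertical scales differ between panels. Top2a, Prc1 and Cdk1 have their highest means in 80 mg/kg hearts at 336 h, Mcm6 has 2 low arrays at 80 mg/kg and 24 h, and Pcna is level.

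Within a dose, moderated F tests asked whether a member's level differed between the 4 times. In vehicle hearts Mcm4 was the only member called (F 6.88, limma adjusted p 0.0165), where 8.05% of all tested probe sets were. Its vehicle signals were 6.93, 6.69, 6.32 and 6.35 at 6 h, from 6.32 over a median of 6.45 to 6.74 at 24 h, 6.11, 6.25, 6.31, 6.21 and 6.35 at 168 h, and 6.09, 5.54, 6.23, 5.89 and 6.13 at 336 h. All 336 h arrays lay below all 6 h arrays. The call was lost without vehicle replicate 3 at 336 h (adjusted p 0.0814) or replicate 5 (0.0530), and with array cluster as a block term (0.695). In 10 mg/kg hearts no member was called, where 7.17% of all tested probe sets were. An unadjusted p under 0.05 was found for 7 members, and for 21.9% of all tested probe sets.

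In 80 mg/kg hearts 4 members were called as differing with time, where 5.77% of all tested probe sets were: Mcm6 (F 9.70, limma adjusted p 0.00327), Kif20a (F 6.98, 0.0175), Top2a (F 6.00, 0.0321) and Cdkn3 (F 5.59, 0.0417). Each had its lowest 80 mg/kg mean at 24 h and its highest at 336 h. Top2a read 5.40, 6.45, 6.43, 5.45 and 5.39 at 24 h and 6.45 or more in all 336 h arrays, so that these times met only at their edges. For Mcm6 the call held with each array left out (adjusted p 0.000329 to 0.0368). It was lost without the atrial arrays (F 1.56, 0.520), which included both lowest Mcm6 arrays at 24 h. Kif20a was lost without replicate 3 at 24 h (0.201), and Top2a and Cdkn3 were lost on leaving out any of several single arrays, with adjusted p up to 0.106 and 0.174.

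The F test of whether the difference between 80 mg/kg and vehicle itself varied over the 4 times called no member (0.0215% of all tested). Unadjusted p was under 0.05 for 9 members, and for 7.3% of all tested probe sets. The smallest adjusted p was that of Mcm6 (0.0950), followed by Cdkn3 and Kif20a (both 0.343) and Top2a (0.439). Leaving out either of 2 single 80 mg/kg arrays at 24 h, replicate 3 or 6, called Mcm6, and leaving out the atrial arrays called Mki67 in its place. For 10 mg/kg no member was called (0%), and 2 had an unadjusted p under 0.05, against 4.7% of all tested probe sets.

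The D cyclins and their kinase were bright, and several of their probe sets followed the array clusters. Ccnd2, at a mean of 9.77, fell into separate levels: 10.09 to 10.92 in the 21 arrays of cluster 1, 9.92 to 10.87 in the 21 of cluster 2 and 7.46 to 9.15 in the 20 of cluster 3. The clusters accounted for 89.5% of its variance. They also differed in the hexokinase control, whose 3′ and 5′ probe sets differed by 1.38 to 1.97, 1.42 to 2.45 and 2.09 to 6.08. Clusters were numbered by the mean of this difference, so their order in it was fixed. At 24 h, 5 of 6 vehicle arrays but only 1 of 5 at 80 mg/kg lay in cluster 3, and the Ccnd2 difference was 1.38 (SE 0.574, limma adjusted p 0.370). At 336 h, where all arrays share a cluster, it was 0.08 (SE 0.600).

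For Ccnd1 the clusters accounted for 79.8% and 50.2% of the variance on 2 of 3 probe sets and 1.66% on the third, for Ccnd3 67.3% and for Cdk4 45.5%, against 0.195% for the brighter Top2a probe set and 5.23% for Ube2c. The Ccnd1 probe sets differed by 0.22, 0.04 and 0.54 between 80 mg/kg and vehicle at 336 h. Pcna had medians of 9.65, 9.56 and 9.63 in the 3 clusters.

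**Figure D5:**
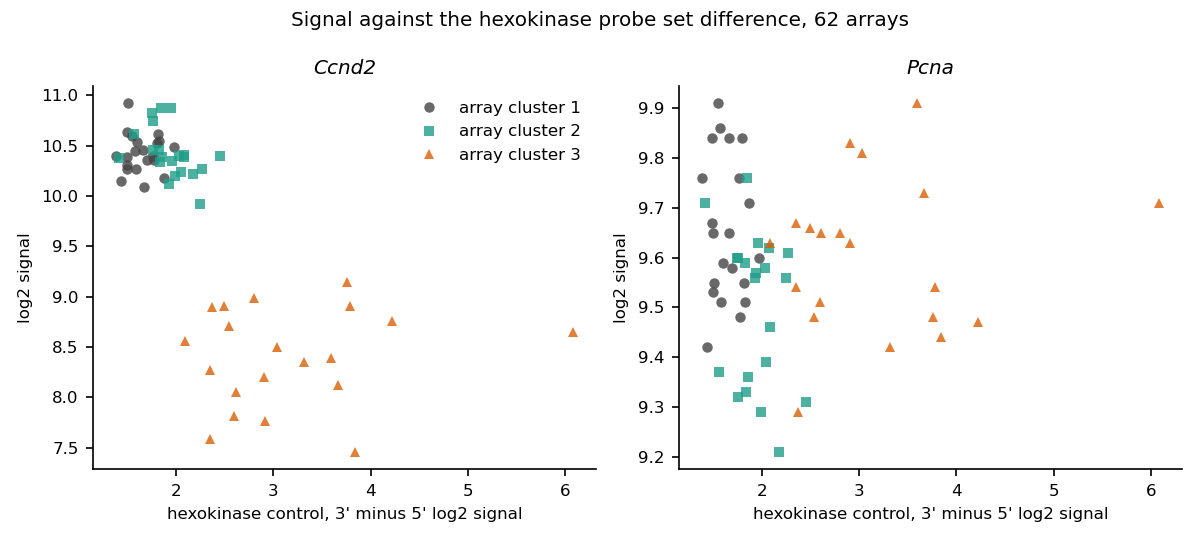
Log2 signal of Ccnd2 (left) and Pcna (right) against the difference between the 3′ and 5′ hexokinase control probe sets in 62 arrays, marked by array cluster. All 20 arrays of cluster 3 lie at or below 9.15 for Ccnd2, under every other array, whereas for Pcna the clusters overlap.

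The mitosis members also varied together between samples of the same group, and the replication members did not. After removal of the group means, the median Pearson correlation between pairs of the 16 mitosis genes over 62 arrays was 0.28, and 44.2% of pairs exceeded 0.3. For pairs of the 8 replication genes the median was 0.03 with 3.57% over 0.3, between mitosis and replication genes 0.08, for the 6 G1 genes −0.06, and for all kept probe sets 0.00 with 6.89%. Prc1 (0.71), Mki67 (0.69), Cdkn3 (0.67) and Racgap1 (0.67) correlated most with the sum of the other mitosis members, each scaled to equal spread. Birc5, the apoptosis inhibitor survivin of the chromosome passenger complex, correlated least (0.26). The points share arrays and their quality, and the values are descriptions with no test.

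Other genes of the pathway were read from lists kept apart from the members. Of 51 further G2 and mitosis genes 24 were kept, and at 336 h 18 of these were higher in 80 mg/kg than in vehicle hearts, with a median of 0.19, a smaller shift than the members' 0.60. At 24 h 4 of 24 were higher at 80 mg/kg (median −0.20) and 7 of 24 at 10 mg/kg (median −0.16). They varied together less than the members did, with a median pair correlation of 0.04. Of their pairs 6.16% exceeded 0.3, near the 6.89% of all kept probe sets, against 44.2% for the members. Of 36 further replication genes 24 were kept and 13 were higher at 336 h, with a median of 0.04. None of these genes was called against vehicle in either list.

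Of 25 inhibitors and brakes of the cycle 21 were kept, and 11 were higher in 80 mg/kg hearts at 336 h, with a median of 0.01. Cdkn1a, the p21 inhibitor of cyclin-dependent kinases, stood at a mean of 8.73 at 80 mg/kg, 9.12 at 10 mg/kg and 8.45 in vehicle hearts at 336 h on its brighter probe set. The differences from vehicle were 0.28 (SE 0.220, limma adjusted p 0.915) and 0.67 (SE 0.211, limma adjusted p 1). With time, Cdkn1a was called in 10 mg/kg hearts (F 16.7, limma adjusted p 6.87e-05) and in 80 mg/kg hearts (F 7.85, 0.0107). Btg1, an antiproliferative gene, and Cdc25b, a phosphatase that activates Cdk1, were called with time in vehicle, 10 mg/kg and 80 mg/kg hearts, so that they differed with time in the absence of the drug too. Ccng2, Mdm2 and Wee1 were called with time in both dosed groups and Ccng1 and Rbl2 in vehicle. The F test of whether a dose's difference from vehicle varied over the times called none of these 7 genes or Cdkn1a. All 336 h arrays lay in array cluster 2, and no vehicle array at 6 or 24 h did. The part of the clusters in the time calls of these genes was not tested.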

How the data were processed

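The authors hybridised labelled RNA of each sample to an Affymetrix rat array and deposited, per the submitters' processing notes, a MAS5 signal intensity per probe set from GCOS, whose software versions are not given in the sources used here. Of 31099 probe sets, 57 controls were left out. Annotation gave 20826 probe sets 1 gene and 436 several. Array medians ran from 31.1 to 86.9, so intensities were taken to log2 and quantile normalized, and 18625 probe sets with a mean of at least the 40th percentile were fitted in limma 3.58.1 (R 4.3.3) to 12 group means of 62 arrays. Benjamini-Hochberg adjustment ran over all kept probe sets, with calls at 0.05. The number of arrays limits precision. A list's median used the brightest kept probe set of each gene.

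Genes named for changes were those called, the 2 replication and 2 mitosis genes of smallest p in each comparison with vehicle, and 10 fixed genes with Cdkn1a. Members and lists were chosen with earlier results of these data known. Scaling, floor, filter, array weights, blocks and left-out arrays were the alternatives. The code was tested on simulated data.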

Additional observations from a re-analysis of the deposited data

Results flagged for a closer look

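In 9 of 168 groups of values tested for a sample far from its group (5.36%, where chance gives about 1 in 20), the highest or lowest array stood apart. Mki67 in vehicle hearts at 6 h was 2.38 in replicate 6, with the next array at 5.97, and the differences at 6 h were near 0 without it. Ccnd2 was 7.81 in replicate 5 of 80 mg/kg hearts at 24 h (next 10.55) and 7.59 in replicate 1 of vehicle hearts at 168 h (next 10.15). In 80 mg/kg hearts at 168 h, Mcm6 was 5.57 in replicate 5 (next 5.84), Top2a was 7.09 in the same array (next 6.40), and Cdkn3 was 5.15 in replicate 3 (next 5.61). Ccnb1 was 5.86 in replicate 4 of vehicle hearts at 336 h (next 5.49) on its brighter probe set. The mitosis list level was −0.761 in replicate 3 of vehicle hearts at 24 h (next 0.097), an array on the side of the dosed hearts. The replication list level was −0.235 in replicate 4 of 10 mg/kg hearts at 6 h (next 0.01).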

How the results depend on the processing

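Alternatives other than leaving out an array gave 431 values over 41 counts and medians that answer comparisons. Of these 409 stayed close and 22, all of them counts, moved further. The cause was not tested. A count was close within 1.5 times. A median was close within 1 SD, between replicates, of the median signal over the list's genes in an array. That spread is wide, and medians within it still changed: less the median of all probe sets, the mitosis value at 6 h went without the atrial arrays from 0.18 to 0.00 for 80 mg/kg, from 0.03 to −0.07 for 10 mg/kg and from 0.09 to −0.12 between the doses, and the last was −0.05 without 10 mg/kg replicate 5. At 24 h the 80 mg/kg value went from −0.26 to −0.12 with unscaled signals. Small replication medians changed sign as well, such as 80 against 10 mg/kg at 6 h, from 0.08 to −0.04 without the atrial arrays. For 80 mg/kg against vehicle at 24 h (1 called) it was 0 with unscaled signals, either block, the arrays of high actin difference left out or 24 h arrays alone, and 2 without the atrial arrays. At 336 h (0 called) it was 2 with array weights and 1 with that time's arrays alone. Time in vehicle hearts (1) gave 0 unscaled, with the cluster block or without the actin arrays, and 6 with weights. Time in 10 mg/kg hearts (0) gave 4 unscaled, and 1 with weights or without the atrial arrays. Time in 80 mg/kg hearts (4) gave 11 unscaled, 2 with no filter, the cluster block or no atrial arrays, and 0 with that dose alone. The 80 mg/kg effect across times (0) gave 1 with weights or without the atrial arrays. With an array left out, called members ranged from 0 to 1 for both doses at 6 h, 80 mg/kg at 24 h and the 80 mg/kg effect across times, from 0 to 4 for time in vehicle and from 2 to 5 for time in 80 mg/kg hearts.

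On unscaled signals, where the median of all probe sets lay between −0.36 and 0.38, the sign turned for Mcm5 (−0.0133) and Tk1 (−0.0899) at 10 mg/kg and 24 h, Tk1 at 80 mg/kg and 168 h (−0.0666) and Mcm4 at 10 mg/kg and 168 h (−0.0206). It turned without the atrial arrays for Mcm5 at 10 mg/kg and 6 h (0.109), and, for Mki67 at 10 mg/kg and 6 h, without vehicle replicate 6 (−0.0858, the lowest with an array left out, where the highest was 1.14).

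Replicate numbers gave no uniform pairing of the samples (52 same-numbered pairs, correlations −0.257 to 0.338, 14 above 0.1). Same-numbered pairs correlated more than other pairs in some comparisons, such as 80 mg/kg against vehicle at 6 h (median 0.216 against −0.0418). They correlated less in others, such as 80 against 10 mg/kg at 6 h (−0.188 against 0.0959). With the replicate number as a block, Mcm6 at 24 h kept −1.46 (adjusted p 0.0741) and the mitosis median at 336 h was 0.62. The time tests within a dose could not be fitted with this block. Signals of the mitosis genes were low and near background, and the part of this in their results was not tested.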
